A study of Danio rerio with 18 samples.

Results

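SWI/SNF complexes are chromatin remodellers that use ATP to slide or evict nucleosomes, and their subunits were followed here in zebrafish pronephric duct. The members were 32 listed zebrafish subunit genes, and a gene was included where a counted RefSeq accession carries its symbol. Of the 32 genes, 25 had at least 1 counted accession, among 18356 genes with a symbol in all. The libraries were RNA sequencing libraries of GFP-positive duct fragments picked from dissociated embryos at 30 hours after fertilisation. The 8 actl6a libraries are labelled as a knockdown, made by injecting 1-cell embryos with a morpholino, an antisense oligonucleotide, against actl6a translation. The 10 control libraries came from embryos labelled WT that received a standard control morpholino. Both groups carry the transgene Na, K-ATPase alpha1A4:GFP, whose GFP marks the pronephros, and the morpholino reaches all cells of the embryo and not the duct alone. Neither the number of ducts behind each library nor whether libraries of a group came from separate injections is given in the labels, so p-values measure the spread between these libraries, which may be technical.

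Each SWI/SNF complex is built around 1 of a pair of alternative ATPases, joined by core subunits that most or all variants share. Known from mammalian complexes, the canonical BAF variant is defined by an ARID1 subunit with a DPF protein, the PBAF variant by ARID2, polybromo, BRD7 and PHF10, and the non-canonical ncBAF variant by BRD9 with a BICRA protein. ACTL6A is an actin-related subunit that binds the ATPase together with actin, and it also belongs to the INO80 and TIP60 remodelling complexes. Subunits are exchanged between paralogues during development, and the best known exchange replaces ACTL6A with ACTL6B as mouse neurons leave the cell cycle.

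Total counts ran from 1731521 to 3393310 in the actl6a libraries and from 1564673 to 3301873 in the controls. A count of 0 allows up to 3 counts, a floor that covers counting error only. On raw library totals this floor is 0.884 to 1.92 CPM (counts scaled to a common library total). Levels elsewhere use totals rescaled between libraries, as described below, on which the floor differs somewhat. The duct marker genes atp1a1a.4 and cdh17 were abundant in both groups. Levels of cdh17 were 1121 ± 95.9 CPM (SD, n = 8) in actl6a libraries and 1128 ± 97.0 CPM (SD, n = 10) in controls. Those of atp1a1a.4 were 1400 ± 184 CPM and 1614 ± 334 CPM, in the same order. Some other pronephros markers varied more between controls than these 2. Levels of hnf1ba were 162 to 292 CPM in actl6a libraries and 0.281 to 358 CPM in controls. Those of lrp2a were 113 to 196 CPM and 8.45 to 248 CPM, in the same order. Of 17 tested pronephros accessions, 12 had negative and 5 had positive log2 fold changes (actl6a over control). Whether duct content was equal between the groups was not tested. Each count table and each range of library barcodes holds 1 group, so the morpholino and any batch effect of preparing or sequencing the libraries cannot be told apart.

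Of the 25 genes with a row, 18 had an accession that passed the filter on low counts and was tested. These were both ATPase genes, 9 of 15 core genes, 2 of 7 BAF genes, 4 of 5 PBAF genes and 1 of 3 ncBAF genes. In actl6a libraries 3 tested members were higher, actl6a, smarcb1a and phf10, and 3 were lower, smarca2, smarca4a and pbrm1l, at an adjusted p under 0.05 (edgeR's quasi-likelihood test, Benjamini-Hochberg adjustment over all accessions). That is 33.3% of the members, beside 16.4% of all 14462 tested accessions, with 16.7% of the members higher beside 7.90% and 16.7% lower beside 8.52%. At an unadjusted p under 0.05 there were 4 members higher and 4 lower, beside 15.7% and 15.5% of all accessions. DESeq2 called 4 members higher and 3 lower, beside 10.9% and 10.2% of all accessions, and limma-voom likewise called 4 and 3, beside 8.60% and 8.70%. Of these tested members, 8 had positive and 10 had negative log2 fold changes (actl6a over control), with a median of −0.12 beside 0.01 over all accessions. Groups did not overlap for 0 of the 18 members, beside 1.77% of all accessions, and 18 members are too few to differ from that share. By class, median log2 fold changes were −0.41 for the 2 ATPases, 0.16 for the 9 core accessions, −0.36 for the 2 BAF accessions and −0.27 for the 4 PBAF accessions.

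**Figure D1:**
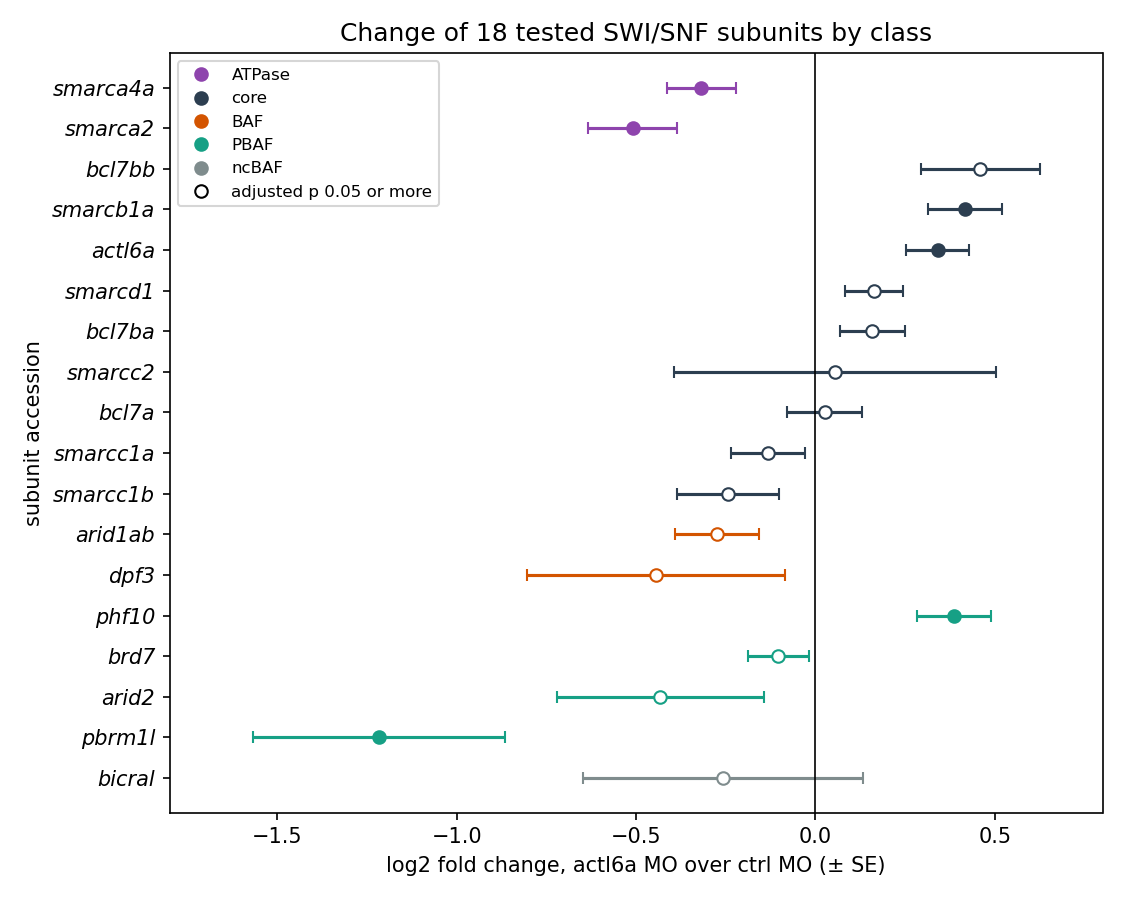
Log2 fold change of each tested subunit accession, actl6a over control morpholino libraries, with its standard error as a bar, ordered by complex class. Filled points have an adjusted p under 0.05 and open points do not. The ATPases lie left of 0 at −0.51 and −0.32, actl6a, smarcb1a and phf10 lie right of it between 0.34 and 0.42, and pbrm1l is farthest left at −1.22.

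The targeted gene, actl6a (NM_173240.1), had more transcript in actl6a libraries than in controls. It ranged from 121.6 to 154 CPM with a median of 138 in the 8 actl6a libraries, against 83.8 to 131 CPM with a median of 114 in the 10 controls. Each of the 8 actl6a libraries exceeded the median control, and 5 exceeded the highest control. Mean levels were 138.6 ± 12.4 CPM in actl6a libraries and 109.5 ± 15.6 CPM in controls (SD, n = 8 and 10), a 1.27-fold difference, or 0.34 ± 0.0887 (SE) on the log2 scale (edgeR, adjusted p = 0.0137). A morpholino that blocks translation need not lower its transcript, so this level neither checks the knockdown nor measures the protein. A second actl6a accession, XM_005165917.4, had 2 counts over the actl6a libraries and 1 over the controls.

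The neuronal paralogue actl6b had few counts under its accessions in both groups. Its accession NM_001020740.2 had 2 counts, both in actl6a replicate 2, against 7 counts in 4 controls. The accession XM_005170576.4 had 10 counts, again all in actl6a replicate 2, against 2 counts in 2 controls. That library also had the highest summed level of neural markers of the 18, at 1425 CPM. Its part in these counts was not tested.

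Both ATPase genes fell. They encode the alternative motors of the complex, related to human BRM (smarca2) and BRG1 (smarca4a). The accession of smarca2 (NM_001044775.2) ranged from 35.2 to 73.6 CPM with a median of 57.6 in actl6a libraries, against 66.1 to 98.0 CPM with a median of 81.5 in controls. Each of the 8 actl6a libraries lay under the median control, and 6 lay under the lowest control. The difference was 0.702-fold, or −0.51 ± 0.125 (SE) on the log2 scale (edgeR, adjusted p = 0.00935). For smarca4a (XM_021469728.1), actl6a libraries ranged from 66.9 to 93.1 CPM with a median of 84.1, against 83.9 to 125 CPM with a median of 101 in controls. Again all 8 lay under the median control, 4 of them under the lowest control. The difference was 0.802-fold, or −0.32 ± 0.0970 (SE) on the log2 scale (edgeR, adjusted p = 0.0303). The call of smarca4a was lost without any 1 of 4 libraries, actl6a replicate 6 or 7 or control replicate 3 or 7, where its adjusted p in the same test ran from 0.0511 to 0.0590 and its log2 fold change from −0.30 to −0.28. It was also lost without the lowest-total library of each group, actl6a replicate 5 and control replicate 4, a choice made after seeing the data (log2 fold change −0.28, adjusted p 0.0740). How reads that match both ATPase genes were assigned is not given in the sources used here, so their split is uncertain. Summed over both genes, the ATPase class took 109.0 to 162 CPM in actl6a libraries, median 143, and 153 to 205 CPM in controls, median 185. In bulk tissue, fewer cells of a type and less RNA per cell cannot be told apart.

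The balance between the ATPases was examined within each library, where it does not depend on scaling between libraries. The ratio of smarca2 to smarca4a counts, whose lengths were not taken into account, ranged from 0.478 to 0.837 with a median of 0.687 in actl6a libraries, against 0.586 to 1.17 with a median of 0.744 in controls. The mean log2 ratio was −0.58 ± 0.281 (SD, n = 8) in actl6a libraries against −0.37 ± 0.316 (SD, n = 10) in controls, a difference of −0.22 (two-sided exact permutation p = 0.151, or 0.301 adjusted over the 2 pairs tested). Of the actl6a libraries 4 lay below the control median ratio and 4 above it, and control replicate 8 had the highest log2 ratio of the 18, 0.22. Both genes fell, and a difference between their falls was not detected.

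**Figure D2:**
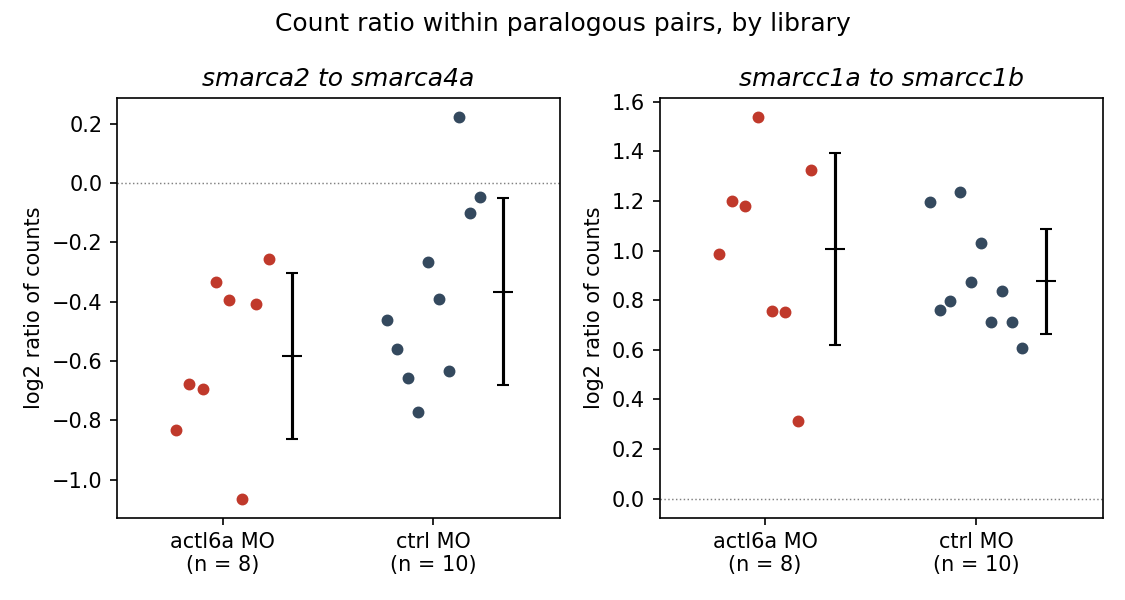
Log2 ratio of counts within each library for smarca2 to smarca4a and for smarcc1a to smarcc1b. Each point is a library, the horizontal tick is the group mean and the bar is 1 SD. In both panels the groups overlap, with differences of −0.22 and 0.13.

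Of the 9 tested core accessions 2 were called higher in edgeR's test, actl6a and smarcb1a, beside 7.90% of all accessions, and the other 7 did not pass. None was called lower, with 0 lower at an unadjusted p under 0.05, in DESeq2 or in limma-voom. The shares of all accessions lower were 8.52% in edgeR, 15.5% unadjusted, 10.2% in DESeq2 and 8.70% in limma-voom. At an unadjusted p under 0.05 there were 3 higher, a share to be read against 15.7% of all accessions. DESeq2 and limma-voom each called 3 higher, beside 10.9% and 8.60% of all accessions. With 9 accessions, which include the targeted gene, these counts do not by themselves show a rise of the class. Of the 9, 7 had positive and 2 had negative log2 fold changes. Summed over the 13 core genes with rows, levels were 800 to 992 CPM in actl6a libraries, median 914. In controls the sums were 701 to 914 CPM, median 809. A difference of these sums, which include actl6a itself, was not tested. The accession of smarcb1a (NM_001007296.1), related to human SNF5, which contacts the nucleosome's acidic patch, ranged from 148 to 190.1 CPM with a median of 172 in actl6a libraries. Controls ranged from 95.2 to 169 CPM with a median of 131. Each of the 8 actl6a libraries exceeded the median control, and 4 exceeded the highest control. The difference was 1.34-fold, or 0.42 ± 0.103 (SE) on the log2 scale (edgeR, adjusted p = 0.0102). Its paralogue smarcb1b had 3 counts in actl6a libraries and 4 in controls. Among controls, replicates 3 and 7 had the lowest smarcb1a levels, at 99.0 and 95.2 CPM, and the highest pbrm1l levels.

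The bcl7 genes encode small subunits of the ATPase module. The accession of bcl7bb (NM_001006018.1) ranged from 70.9 to 97.2 CPM with a median of 76.7 in actl6a libraries, against 25.4 to 81.1 CPM with a median of 60.3 in controls. Each of the 8 actl6a libraries exceeded the median control, 3 exceeded the highest, and the difference was 0.46 ± 0.166 (SE) on the log2 scale. It missed the threshold in edgeR (adjusted p = 0.0637) and passed it in DESeq2 (adjusted p = 0.0360) and limma-voom (adjusted p = 0.0317). Without control replicate 4, the lowest of the controls, the log2 fold change was 0.37 and the adjusted p in edgeR 0.0495. It also passed without control replicate 1 (0.0376) or 6 (0.0464). For bcl7ba actl6a libraries averaged 115 ± 14.9 CPM (SD, n = 8) and controls 103 ± 13.3 CPM (SD, n = 10), and for bcl7a actl6a libraries averaged 90.2 ± 15.5 CPM and controls 88.5 ± 12.3 CPM. Their log2 fold changes were 0.16 ± 0.0906 (SE) and 0.03 ± 0.104 (SE), and that of bcl7a changed sign with the scaling, to −0.05 on library totals.

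The SMARCC proteins form the dimeric scaffold on which the complex assembles. The accession of smarcc1a averaged 85.6 ± 10.9 CPM (SD, n = 8) in actl6a libraries and 93.9 ± 15.4 CPM (SD, n = 10) in controls, and differed by −0.13 ± 0.103 (SE) on the log2 scale. For smarcc1b actl6a libraries averaged 43.1 ± 9.22 CPM and controls 51.05 ± 8.37 CPM, and the log2 difference was −0.24 ± 0.142 (SE). Approximate 95% intervals, from the SE, ran from −0.34 to 0.07 for smarcc1a and from −0.52 to 0.03 for smarcc1b. The log2 count ratio of smarcc1a to smarcc1b was 1.01 ± 0.389 (SD, n = 8) in actl6a libraries against 0.88 ± 0.212 (SD, n = 10) in controls, a difference of 0.13 (two-sided exact permutation p = 0.380, the same after adjustment over the 2 pairs). The other paralogue, smarcc2, had 66 counts in actl6a libraries and 82 in controls, and its log2 fold change of 0.05 ± 0.448 (SE) changed sign on library totals, to −0.01. At this depth no change of smarcc2 was detected, and its approximate 95% interval was wide, from −0.82 to 0.93.

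SMARCD proteins bridge the complex to transcription factors and nuclear receptors. The accession of smarcd1 (NM_198358.1) ranged from 150.5 to 214 CPM with a median of 178 in actl6a libraries, against 136 to 186 CPM with a median of 157 in controls, and 6 of 8 actl6a libraries exceeded the median control. The difference was 0.16 ± 0.0804 (SE) on the log2 scale (edgeR, adjusted p = 0.175). The accession listed for smarcd2 had 0 counts in actl6a libraries and 6 in controls, and that of smarcd3b 0 and 1, which are at the floor in each library or near it. Second accessions of smarcb1a and bcl7a had 0 counts in actl6a libraries, against 5 and 1 in controls. Genes without a row were smarcd3a and smarce1 of the core, arid1aa, arid1b and dpf2 of BAF, and brd9 and bicra of ncBAF, which were not analysed here. Counts are given under 1 accession for most genes, and reads of a gene can be listed under an accession that carries no symbol here, so the absence of a row or a count near 0 does not show that a gene is silent.

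**Figure D3:**
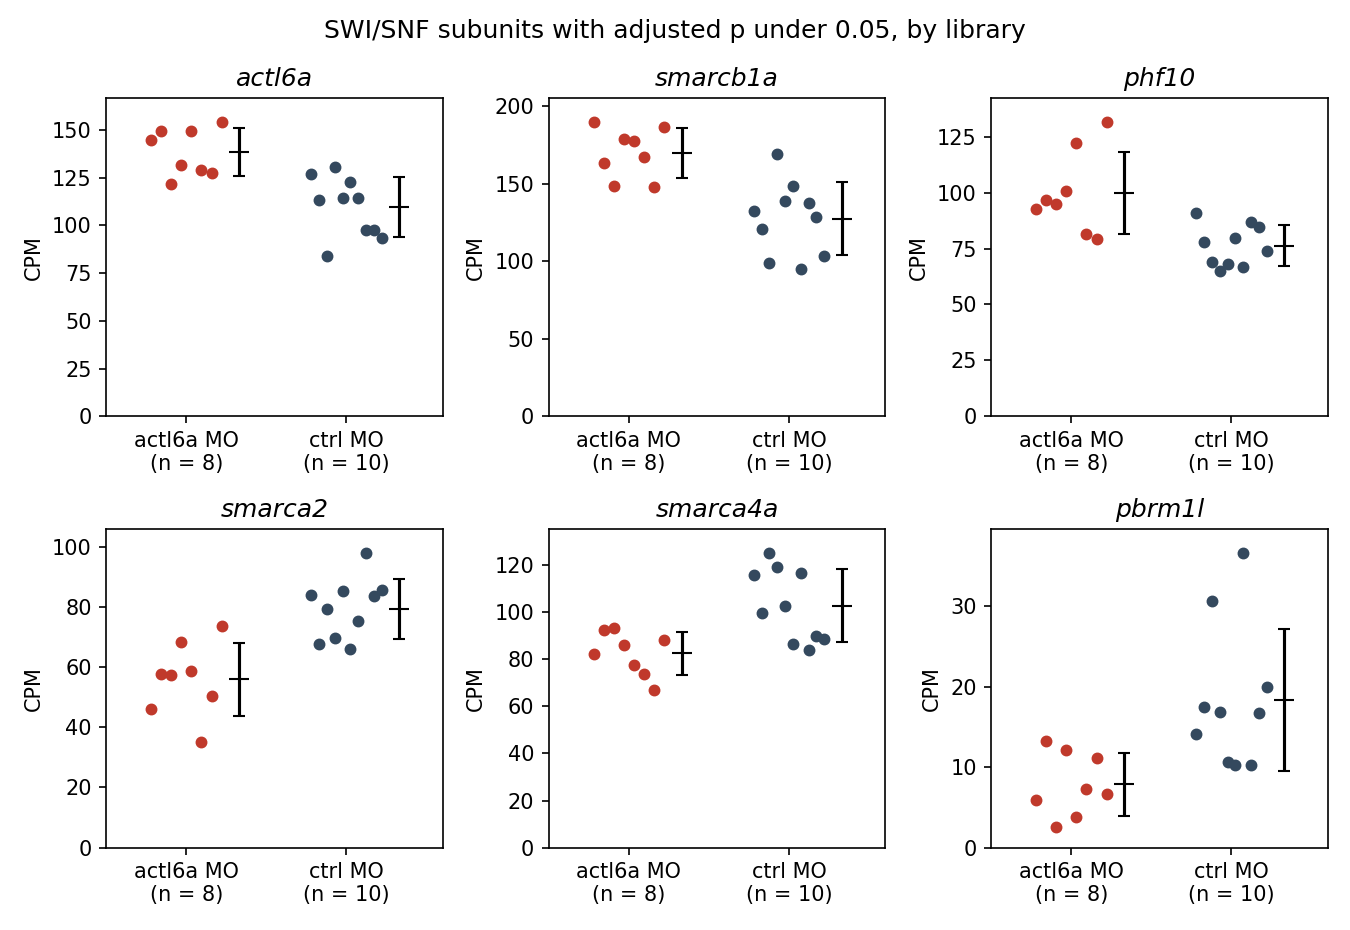
CPM of the 6 subunits with an adjusted p under 0.05, 1 point per library, with 8 actl6a libraries on the left and 10 controls on the right of each panel. The tick and bar beside each group are its mean and SD. The upper row holds actl6a, smarcb1a and phf10, each with its 8 actl6a libraries over the median control, and the lower row holds smarca2, smarca4a and pbrm1l, each with its 8 actl6a libraries under it.

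BAF-specific subunits had 0 called of 2 tested in edgeR's test, DESeq2 and limma-voom, beside 16.4%, 21.1% and 17.3% of all accessions. At an unadjusted p under 0.05 there was 1, which with 2 tested says nothing of the class beside 31.2% of all accessions. It was arid1ab (XM_021468300.1), one of the ARID1 genes that define BAF. It ranged from 55.1 to 89.6 CPM with a median of 65.8 in actl6a libraries, against 54.6 to 99.3 CPM with a median of 84.8 in controls. Of the actl6a libraries 7 lay below the median control. The difference was −0.27 ± 0.118 (SE) on the log2 scale (edgeR, adjusted p = 0.117). It passed the threshold on library totals, at a log2 value of −0.35 (edgeR, adjusted p = 0.0395), and without actl6a replicate 4 (adjusted p 0.0434) or control replicate 6 (adjusted p 0.0360).

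The DPF proteins read acylated histone tails. For dpf3 the libraries were scattered, from 5.76 to 21.9 CPM in the actl6a group and from 3.37 to 35.0 CPM in controls, and they differed by −0.44 ± 0.359 (SE) on the log2 scale. Its paralogue dpf1, known from mouse neurons, was at 0.559 to 6.45 CPM in actl6a libraries and 0.322 to 4.05 CPM in controls, with 73 counts in the actl6a group and 37 in controls. It did not pass the filter on low counts, and without a filter its log2 fold change was 1.28 ± 0.587 (SE; edgeR, adjusted p = 0.186). The highest dpf1 levels, 6.45 and 5.64 CPM, were in actl6a replicates 2 and 1, the 2 libraries with the highest summed neural markers. Next were actl6a replicates 7 and 8, at 4.50 and 4.43 CPM, and control replicate 1, at 4.05 CPM. A link between dpf1 and neural markers was not tested. The accession of ss18 had 5 counts in actl6a libraries and 1 in controls. Over the 4 BAF genes with rows the summed level was 71.2 to 101 CPM in actl6a libraries, median 80.6. In controls it was 75.1 to 139 CPM, median 98.7, and the difference was not tested.

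Of the 4 tested PBAF-specific subunits phf10 was higher and pbrm1l lower, beside 7.90% higher and 8.52% lower of all accessions. Neither arid2 nor brd7 passed the threshold. The accession of phf10 (NM_200655.3), a PHD finger protein, ranged from 79.1 to 132 CPM with a median of 95.8 in actl6a libraries, against 65.04 to 90.7 CPM with a median of 75.9 in controls. Each of the 8 actl6a libraries exceeded the median control, and 6 exceeded the highest control. The difference was 1.31-fold, or 0.39 ± 0.103 (SE) on the log2 scale (edgeR, adjusted p = 0.0160).

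The polybromo gene pbrm1l (NM_001003535.2), whose protein has a row of bromodomains, had the largest fold change of the 18 tested members. It ranged from 2.52 to 13.3 CPM with a median of 6.95 in actl6a libraries, against 10.3 to 36.7 CPM with a median of 16.8 in controls. Each of the 8 actl6a libraries lay under the median control, and 5 lay under the lowest control. The difference was 0.430-fold, or −1.22 ± 0.351 (SE) on the log2 scale (edgeR, adjusted p = 0.0234). The 171 counts in actl6a libraries and 530 in controls make it the least counted of the 6 called members, and its coefficient of variation was 50.2% in actl6a libraries and 48.0% in controls. Control replicates 7 and 3 were highest, at 36.7 and 30.7 CPM, and they were also highest for arid2, at 52.4 and 43.0 CPM. Without the lowest-total library of each group, the log2 fold change was −1.13 and the adjusted p in edgeR 0.0511. The paralogue pbrm1 had 5 counts, all in actl6a replicate 6, and 0 in controls.

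The ARID subunit of PBAF, arid2, ranged from 9.23 to 30.9 CPM with a median of 22.9 in actl6a libraries, against 11.7 to 52.4 CPM with a median of 26.4 in controls. They differed by −0.43 ± 0.288 (SE) on the log2 scale (edgeR, adjusted p = 0.323), with an approximate 95% interval of −0.997 to 0.13. The accession of brd7 was at 142 ± 19.4 CPM in actl6a libraries and 152 ± 16.5 CPM in controls (SD, n = 8 and 10). Its log2 difference was −0.10 ± 0.0864 (SE), with an approximate 95% interval of −0.27 to 0.07. Over the 5 PBAF genes the summed level was 224 to 310.1 CPM in actl6a libraries, median 266, and 239 to 293 CPM in controls, median 279.

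Of the ncBAF genes bicral was tested. It had 71 counts in actl6a libraries and 115 in controls, or 3.27 ± 1.91 CPM in actl6a libraries and 3.90 ± 1.66 CPM in controls (SD, n = 8 and 10). On the log2 scale the difference was −0.26 ± 0.391 (SE), and the approximate 95% interval of −1.02 to 0.51 was wide at this depth. Levels of different genes were not ranked, since no transcript lengths were used here.

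Markers of other cell types were summed per library in both groups. Counts called higher among them are to be read beside 7.90% of all accessions in edgeR, 10.9% in DESeq2 and 8.60% in limma-voom. Those called lower stand beside 8.52%, 10.2% and 8.70%, in the same order. At an unadjusted p under 0.05 the shares of all accessions were 15.7% higher, 15.5% lower and 31.2% in either direction. Summed levels of 18 epidermis genes with rows, of 20 listed, were 1489 to 6198 CPM in actl6a libraries, median 2879, and 1345 to 2652 CPM in controls, median 1800. All 15 tested had positive log2 fold changes, with 2 called higher in edgeR's test, 5 in DESeq2 and 0 in limma-voom. For 21 of 26 neural genes the sums were 337 to 1425 CPM in actl6a libraries, median 423, and 311 to 499 CPM in controls, median 426, with 5 of 11 tested called higher in edgeR's test, 6 in DESeq2 and 4 in limma-voom, and 0 called lower in any of the 3. At an unadjusted p under 0.05, 6 neural accessions were higher and 1 lower, beside 15.7% and 15.5% of all accessions. Sums of 13 of 20 blood genes were 241 to 5086 CPM in actl6a libraries, median 662, and 43.7 to 1987 CPM in controls, median 101, with 0 of 10 called in edgeR's test, 0 at an unadjusted p under 0.05, 0 in DESeq2 and 4 in limma-voom. Skeletal muscle genes, 17 of 24, summed to 700 to 14554 CPM in actl6a libraries, median 1663, and 193 to 11189 CPM in controls, median 4017, with 0 of 15 called in edgeR's test, DESeq2 or limma-voom and 0 at an unadjusted p under 0.05. All 10 tested blood accessions, 9 of 11 neural and 14 of 15 muscle accessions had positive log2 fold changes. Their medians were 1.48, 1.48 and 0.36, beside 0.01 over all accessions. The epidermis gene anxa1c had 3 counts or fewer over all libraries, and every other gene of these 4 lists with a row had more. The pronephros markers, 20 of 27 with rows, summed to 3721 to 5176 CPM in actl6a libraries, median 4690, and 4278 to 6365 CPM in controls, median 4852, with 0 of 17 called in edgeR's test, DESeq2 or limma-voom and 2 at an unadjusted p under 0.05.

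With the mean log2 CPM of the tested muscle, blood, epidermis and neural lists as 4 covariates, 0 members were called in edgeR's test, beside 366 accessions, or 2.53%, of all tested. Unadjusted p-values were under 0.05 for 5 of the 6 members called without covariates, and 0.0518 for smarca4a. The share of all accessions under that unadjusted p in this fit is not given here. The directions of all 6 held, and their standard errors were larger. These 6 were selected by their calls in the same libraries, so their p-values and directions here are no independent check. Log2 fold changes were then 0.46 ± 0.144 (SE) for actl6a, 0.54 ± 0.167 for smarcb1a and 0.41 ± 0.153 for phf10, with adjusted p of 0.0908, 0.0916 and 0.153. For smarca2 it was −0.48 ± 0.187 (SE), for smarca4a −0.33 ± 0.158 and for pbrm1l −1.36 ± 0.518, with adjusted p of 0.172, 0.260 and 0.163. For arid1ab the value was −0.01 ± 0.174 (SE) with covariates and −0.27 ± 0.118 (SE) without them. Without actl6a replicates 1 and 2, the libraries highest in neural markers, left out after seeing the data, the counts were 3 higher and 3 lower, with adjusted p of the called members from 0.0300 to 0.0481. Over all accessions 1601 were then called, against 2375 with all libraries.

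**Figure D4:**
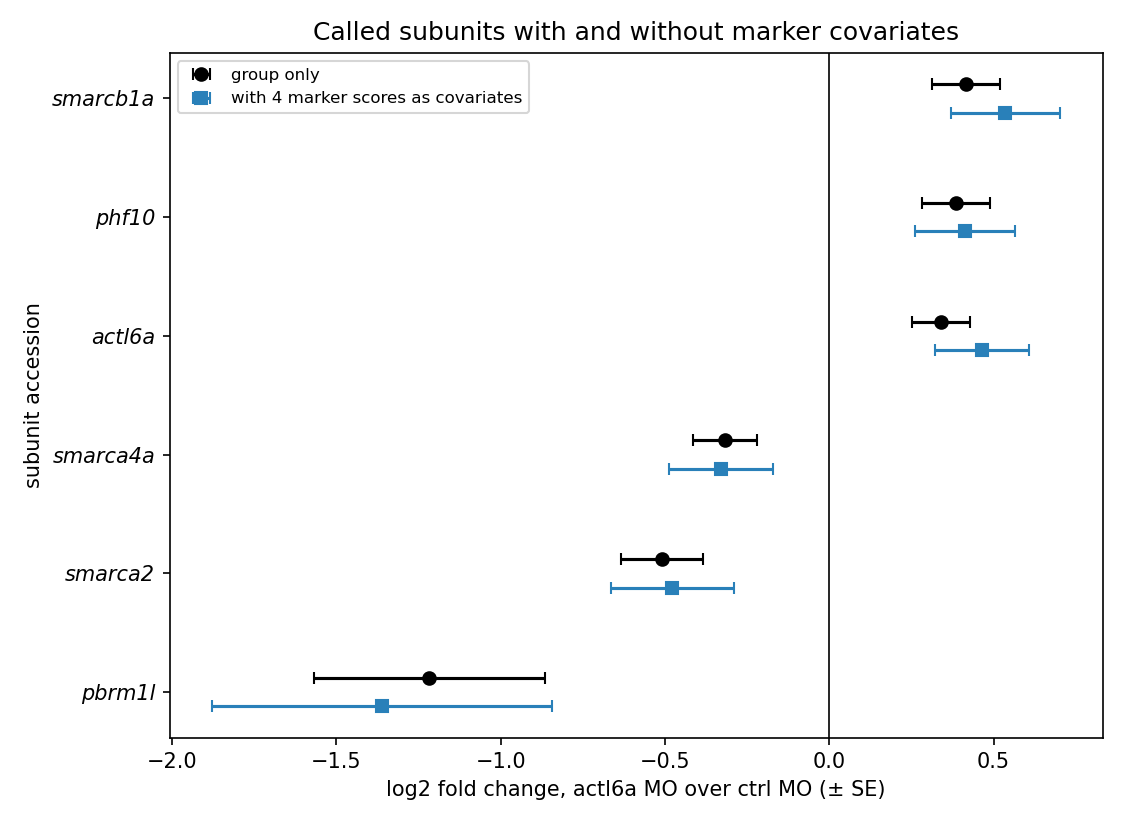
Log2 fold change, actl6a over control, of the 6 called subunits in the fit with group alone and in the fit with the muscle, blood, epidermis and neural marker levels as covariates. Bars are standard errors. The direction is the same for each of the 6, with pbrm1l at −1.22 and −1.36 and smarcb1a at 0.42 and 0.54. The 6 were selected by the fit with group alone on the same libraries.

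Other remodelling complexes served as context. Further SWI/SNF genes outside the member list had rows for 7 of 13 genes, with 4 tested accessions. Of these 0 were called in edgeR's test, DESeq2 or limma-voom, beside 16.4%, 21.1% and 17.3% of all accessions. At an unadjusted p under 0.05 there was 1, ss18l2, beside 31.2%. The actin genes actb1 and actb2, whose protein pairs with ACTL6A in the complex, had log2 fold changes of 0.17 ± 0.0993 (SE) and 0.23 ± 0.136 (SE). For dpf2l, a relative of dpf2, actl6a libraries averaged 45.8 ± 7.88 CPM (SD, n = 8) and controls 48.3 ± 7.76 CPM (SD, n = 10).

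The INO80, SRCAP and TIP60 subunits, among which ACTL6A also works, had 24 tested accessions of 27 genes with rows. In edgeR's test 0 were higher and 1 lower, beside 7.90% and 8.52% of all accessions. At an unadjusted p under 0.05 there were 5 higher and 2 lower, beside 15.7% and 15.5% of all accessions. DESeq2 called 1 higher and 1 lower, beside 10.9% and 10.2% of all accessions. In limma-voom 0 were higher and 1 lower, beside 8.60% and 8.70%. The lower one was trrap, a very large scaffold of the TIP60 complex, at 26.5 ± 7.69 CPM in actl6a libraries and 48.5 ± 14.0 CPM in controls (SD, n = 8 and 10), a log2 difference of −0.87 ± 0.228 (SE; edgeR, adjusted p = 0.0139). The list's median log2 fold change was 0.09.

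Among ISWI and CHD remodellers 19 accessions were tested. In edgeR's test 0 were higher and 3 lower, beside 7.90% and 8.52% of all accessions. DESeq2 called 0 higher and 3 lower, beside 10.9% and 10.2%. In limma-voom 0 were higher and 2 lower, beside 8.60% and 8.70%. At an unadjusted p under 0.05, 0 were higher and 6 lower, beside 15.7% and 15.5%. The median log2 fold change was −0.21. The lower ones were bptf (−2.27 ± 0.471, SE), chd9 (−2.26 ± 0.593) and baz1b, whose mammalian counterpart pairs with an ISWI ATPase (−0.56 ± 0.157), with adjusted p of 0.00347, 0.0140 and 0.0208 in edgeR's test. Levels of bptf, the scaffold of the NURF complex, were 0.403 to 12.5 CPM in actl6a libraries, median 4.79, against 11.4 to 52.3 CPM in controls, median 26.0. The ISWI ATPase gene smarca5 was at 82.6 ± 10.3 CPM in actl6a libraries and 86.6 ± 12.9 CPM in controls (SD, n = 8 and 10), and differed by −0.07 ± 0.0969 (SE) on the log2 scale.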

How the data were processed

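The deposited values are whole-number counts per RefSeq accession, in a table of 10 control libraries and a table of 8 actl6a libraries. Per the submitters' processing notes, cutadapt, FastQC, STAR, featureCounts and edgeR were used with the build GRCz11. Their settings, and any use of molecular identifiers or strand, are not given in the sources used here. The tables were joined, with an accession missing from a table taken as 0, which held for 4245 of 32820 accessions with 0.0376% of the counts. Symbols came from RefSeq's GRCz12tu gene table by accession, with its version for 10586 accessions and without it for 9629. That table also lists smarca2 as an older name of smarca4a, and current symbols were used.

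Accessions kept by filterByExpr (14462, with 98.2% of counts) were fitted with edgeR 4.0.16 in R 4.3.3 by its quasi-likelihood method, with TMM factors and the morpholino group as the sole variable. P-values were adjusted by Benjamini and Hochberg over all tested accessions. The script was tested on simulated data with the same dispersion for every accession. The simulated folds were all larger than those of the called members other than pbrm1l, so this tests the code and not the calls. CPM uses TMM-scaled totals, and each SE was obtained from the log2 fold change and its F statistic (absolute value over the root of F). Pair ratios used a pseudocount of 0.5 counts and the exact permutation test over 43758 choices of libraries, and 2 of 8 listed pairs had both members tested. Alternatives used DESeq2 1.42.0 and limma 3.58.1 (voom with sample weights), among others. Members and lists were chosen with earlier results of these data known. The text names every member, members past the threshold in full, and up to 3 called accessions of each list of other remodellers, but markers of cell types by their counts and sums. The rule also named the member of each class with the highest level per length, which could not be applied without transcript lengths. The genes ss18l2, actb1, actb2, dpf2l, smarca5, atp1a1a.4, cdh17, hnf1ba, lrp2a and anxa1c were named after their values were seen.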

Additional observations from a re-analysis of the deposited data

Results flagged for a closer look

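Among the 36 groups of CPM values checked, 18 members in each of the 2 morpholino groups, 3 held a library that stood apart from the rest of its group by more than Dixon's test allows at the 95% level, where chance flags about 1 in 20. In control replicate 1, bcl7a was at 119.5 CPM, above the other 9 controls, by a gap of 0.572 of the range. Control replicate 4 was highest for bcl7ba, at 136.6 CPM (gap 0.627 of the range), and for brd7, at 193.2 CPM (gap 0.588). That library had the lowest total count of the 18, 1564673.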

How the results depend on the processing

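With markers of other tissues as covariates, 0 members were higher and 0 lower, 0 accessions of the 3 other remodeller lists were called and 366 of all accessions. Whether equal replicate numbers pair libraries is not given in the labels. Deviations from group means correlated at −0.119 to 0.324 between libraries of equal number, and libraries of unlike number were not compared, so pairing is unknown. With the number as a replicate block 1 member was higher (smarcb1a) and 1 lower (smarca2). In that fit 2 other remodeller accessions and 1040 of all accessions were called, against 2375 of all accessions without the block. Blocked, the pair differences were −0.14 and 0.08, with no change of call. Without a filter on low counts 1 member was higher and 2 were lower, beside 1966 of all accessions called. Adjusted p in edgeR's test was then 0.0551 for actl6a, 0.0546 for phf10 and 0.0543 for smarca4a. Without the lowest-total library of each group, a choice made after seeing the data, 3 members were higher and 1 was lower. In that fit 2067 of all accessions were called. Leaving out 1 library at a time gave 3 to 4 members higher, 2 to 4 lower, 4 to 6 other remodeller accessions and 1876 to 2417 of all accessions. On library totals 852 accessions were higher and 1608 lower, against 1143 and 1232 with TMM. Signs reversed for 2 members that were never called. For smarcc2 they were −0.0117 on library totals, −0.0488 with marker covariates and −0.10 to 0.21 over single libraries left out, of which 9 of 18 gave a value, since smarcc2 did not pass the filter in the others, and 4 of the 9 were negative. Likewise bicral had a value in 13 of 18. For bcl7a they were −0.0524 on library totals, −0.0017 without a filter, −0.0250 in the replicate block, −0.0027 in limma-voom, −0.0088 without the 2 libraries highest in neural markers, −0.0104 without the lowest-total libraries and −0.0244 to 0.0839 over single libraries left out. The cause was not tested. The least counted of the tested members were smarcc2 and bicral, and bicral did not change sign in any setting. By contrast bcl7a had 1830 counts in actl6a libraries and 2417 in controls.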
